A study of Mus musculus with 288 samples.

Results

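Cholecystokinin (Cck), secretin (Sct), ghrelin (Ghrl) and neurotensin (Nts) are peptide hormones of the upper gut whose transcripts were counted in single cells of the mouse small intestine. The 4 genes were taken by name from the 46078 mouse genes of the count table. Their levels were read in the 250 of 288 cells that had at least 20000 reads on mouse genes and at most 20% mitochondrial reads. A carrier of a hormone is a cell at or above a stated level in CPM, its reads as a share of the cell's reads on mouse genes scaled to 1e+06, either 1000 or 10000 CPM. The cells came from 3 male GLU-Venus mice aged 20 to 21 weeks, in which the proglucagon promoter drives the fluorescent protein Venus, and no treatment or second genotype was compared. They were sorted one per well and sequenced by Smart-seq2 in 3 pools of 96 cells, SLX-11175, SLX-11179 and SLX-9703, which serve as the replicates. The labels name every cell an L cell and give its pool, but give neither its mouse nor its Venus fluorescence. By the study's methods the sort of the 2 shallow pools also kept Venus-negative cells, and SLX-9703 was read deeper. The study read cells of 2 mice at low depth and those of the remaining mouse at high depth.

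Enteroendocrine cells make their hormones as prohormones, cut them to active peptides and keep them in granules together with the chromogranins Chga and Chgb. They were once sorted by 1 hormone per cell: I cells for cholecystokinin, which empties the gallbladder; S cells for secretin, which draws bicarbonate from the pancreas; N cells for neurotensin; X cells for ghrelin, which raises appetite. L cells make glucagon-like peptides from the product of Gcg, K cells make Gip, and enterochromaffin cells make serotonin with the enzyme encoded by Tph1. Which of the hormones occur together in a cell is the question addressed here.

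The promoters of the 4 genes are shown because the data compare which of these genes were read in the same cells. Each sequence is the 250 bases before the RefSeq start of the gene on build GRCm38.p6, on the minus strand, printed 5′ to 3′. RefSeq gives 4 windows for Ghrl, of which the one nearest the GENCODE start is shown, and the last 68 bases of the Nts window lie inside the GENCODE span of the gene. Capitals mark the E-box CANNTG, the motif that basic helix-loop-helix factors such as Neurod1 bind, searched on both strands (it is its own reverse complement).
Cck (chr9:121495695-121495944): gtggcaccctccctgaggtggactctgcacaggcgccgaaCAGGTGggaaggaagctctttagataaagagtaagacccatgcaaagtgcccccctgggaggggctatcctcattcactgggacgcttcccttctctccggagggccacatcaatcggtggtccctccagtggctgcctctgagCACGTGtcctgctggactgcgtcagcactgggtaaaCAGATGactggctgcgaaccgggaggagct
Sct (chr7:141279134-141279383): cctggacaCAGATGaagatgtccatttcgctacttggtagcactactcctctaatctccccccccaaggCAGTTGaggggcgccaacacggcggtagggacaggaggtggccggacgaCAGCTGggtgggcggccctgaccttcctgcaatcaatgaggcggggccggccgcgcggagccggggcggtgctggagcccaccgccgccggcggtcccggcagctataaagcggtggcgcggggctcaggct
Ghrl (chr6:113719912-113720161): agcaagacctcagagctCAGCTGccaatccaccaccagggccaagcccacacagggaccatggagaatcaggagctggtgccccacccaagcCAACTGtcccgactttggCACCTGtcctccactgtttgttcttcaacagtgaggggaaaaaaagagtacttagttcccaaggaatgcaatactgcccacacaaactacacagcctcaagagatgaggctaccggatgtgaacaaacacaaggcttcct
Nts (chr10:102490419-102490668): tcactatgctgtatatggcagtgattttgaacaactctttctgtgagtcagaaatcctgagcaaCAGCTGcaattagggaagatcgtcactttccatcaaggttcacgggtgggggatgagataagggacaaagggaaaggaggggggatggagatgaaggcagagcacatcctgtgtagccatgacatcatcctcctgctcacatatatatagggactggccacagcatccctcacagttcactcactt
The Cck, Sct and Ghrl windows held 3 E-boxes each and the Nts window held 1, and 66.2% of all 32851 RefSeq windows of this length held at least 1. The form CAGATG stood in the Cck window, 30 bases before the start, and in the Sct window, 242 bases before it. It was in neither of the other windows and in 14.4% of all windows, searched on both strands and overlapping the E-boxes by construction. The box TATAAA was found in the Sct window alone of the 4, 28 bases before the start, and in 12.4% of all windows. The letters TATATA stood in the Nts window alone of the 4, at 45 and 43 bases before the start, and in 5.25% of all windows. The letters TGACG, on either strand, stood once each in the Cck and Nts windows, 47 and 166 bases before the start, and in 17.8% of all windows. GGGCGG stood in the Sct window alone of the 4, at 123 and 69 bases, and in 32.7% of all windows. These are matches of letters, and no binding was measured.

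By the GENCODE M21 annotation of build mm10 all 4 genes lie on minus strands. Cck (ENSMUSG00000032532) spans chr9:121489824-121495694, Sct (ENSMUSG00000038580) chr7:141278330-141279133, Ghrl (ENSMUSG00000064177) chr6:113716119-113719880 and Nts (ENSMUSG00000019890) chr10:102481756-102490486. Smart-seq2 does not mark the strand, so reads of Ghrl cannot be told apart from those of Gm26982 and Gm44033, which overlap it on the plus strand. Counts of the other 3 genes overlap no annotated gene.

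After the filters 75, 87 and 88 cells were left in the 3 pools (in the order above, kept throughout). The median depth was 52571, 70726 and 1975710 reads on mouse genes per cell. A single read was thus worth 19.02, 14.1 and 0.506 CPM in the median cell of each pool, well under both thresholds. Cells with at least 500 CPM of Chga and Chgb together are called chromogranin cells, a gate that uses none of the 4 hormones. It took 49, 64 and 74 cells, 187 in all, and in each pool their median summed level of 9 endocrine markers, the gate's genes included, was between 10976 and 23052 CPM. Of the 63 cells below the gate, 22 had at least 1000 CPM of 7 immune markers, and Gip was at 10000 CPM in 7, 2 and 2, so the label L cell does not hold for every cell. Gcg itself was at or above 1000 CPM in 29 of 49, 30 of 64 and 35 of 74 chromogranin cells.

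Most chromogranin cells carried Cck and Sct, fewer carried Ghrl and fewest carried Nts. At 1000 CPM, 91.01% ± 5.8 of chromogranin cells carried Cck (mean ± SD over 3 pools), 87.6% ± 3.7 carried Sct, 52.5% ± 3.3 carried Ghrl and 27.4% ± 6.2 carried Nts. At 10000 CPM the shares were 82.4% ± 2.3, 62.8% ± 6.3, 23.6% ± 5.6 and 14.6% ± 4.0. At 10000 CPM the order of the hormones was the same in SLX-11175 and SLX-9703, while in SLX-11179 Ghrl and Nts had 12 of 64 cells each. At 1000 CPM Sct was above Cck in SLX-11175 and equal to it in SLX-11179, where each had 55 of 64 cells.

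The levels within cells ranged widely. Cck, from which the gallbladder hormone is cut, had medians of 127747, 97080 and 129019 CPM in the chromogranin cells of the 3 pools and reached 406634 CPM. Sct, the secretin gene, had medians of 18617, 13508 and 32963 CPM. Ghrl, whose peptide needs an acyl group added by the enzyme Mboat4 to be active, had medians of 876, 1073 and 1850 CPM, close to the lower threshold. Nts, the neurotensin gene, had medians of 94.95, 115 and 6.1 CPM and highest values of 416764, 358705 and 185674 CPM. A median Nts cell was therefore nearly without the transcript while a few cells held more of it than the median cell held of Cck. In SLX-11175 and SLX-11179, cells at or above 10000 CPM held 96.7% and 98.4% of the summed Nts CPM of the chromogranin cells, and in SLX-9703 they held 93.03%.

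**Figure D1:**
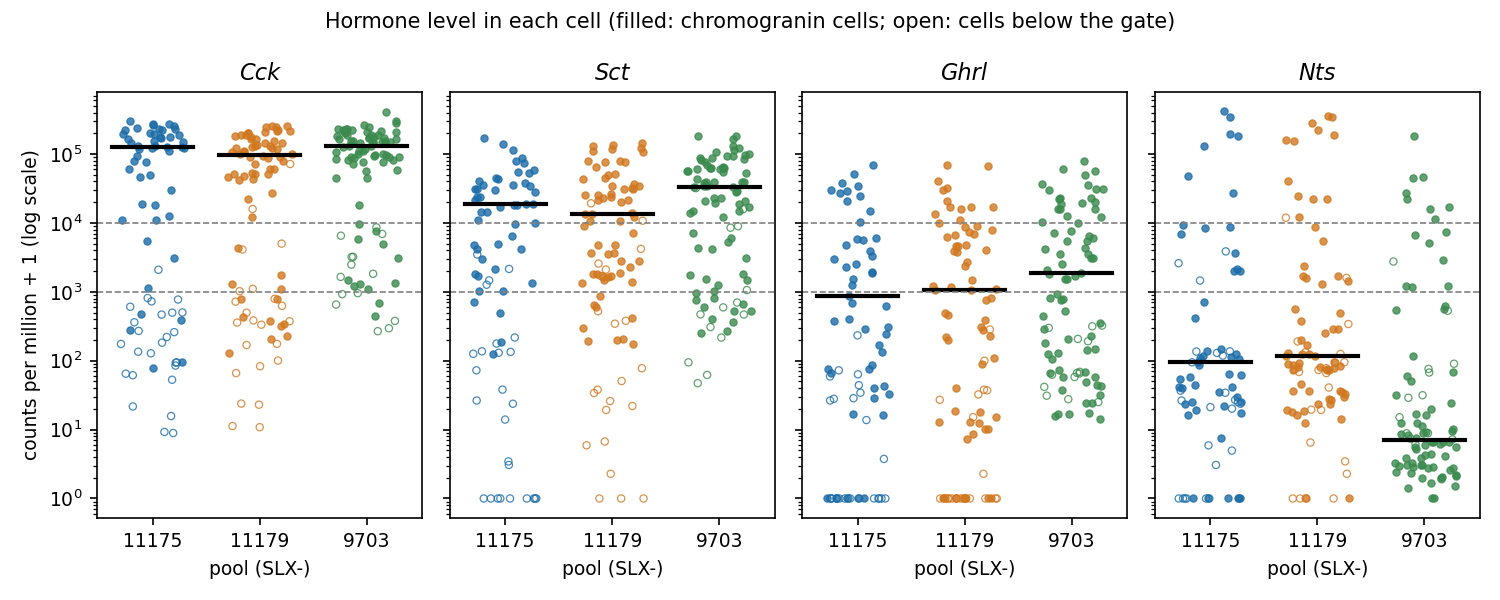
Level of each hormone (CPM + 1, log axis) in each cell that passed, by pool; filled points are chromogranin cells, open points cells below the gate, bars medians of the chromogranin cells and dashed lines 1000 and 10000 CPM. Cck and Sct medians lie above 10000 CPM in each pool, and Ghrl medians lie near 1000 CPM. Nts ranges from many cells near or below 100 CPM to a few far above 10000 CPM. Of the 50 chromogranin cells with Nts at 1000 CPM, 23 lie below 10000 CPM.

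In cells that should lack the hormones, reads of all 4 were still found. In the 22 cells with immune markers the highest values were 653 CPM of Cck, 216 of Sct, 68.02 of Ghrl and 135 of Nts, at a median depth of 96374 reads against 116863 in the chromogranin cells. None of the 22 reached 1000 CPM of any of the 4, which allows a share of up to 13.6% by the limit of 3 counts. Both thresholds therefore lay above the level found in these cells. Below the chromogranin gate, however, 1 of 26, 6 of 23 and 8 of 14 cells had 1000 CPM of Cck or more, and 4, 7 and 5 had as much Sct, so the lower threshold also took in cells with few endocrine transcripts. Intervals and limits on shares of cells cover counting error only, and the reads carry no molecular identifiers.

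Compared per kilobase of exon (1305 bases for Cck, 645 for Sct, 1079 for Ghrl and 1248 for Nts), Cck was the leading hormone of the 4 in 119 of the 169 chromogranin cells that held any of them at 10000 CPM. Sct led in 32, Nts in 14 and Ghrl in 4. By reads, without the division by length, Cck led in 142, Nts in 15, Sct in 9 and Ghrl in 3, so the second place turned with the scale. By pool, Cck led in 33 of 46, 41 of 58 and 45 of 65 cells. Together the 4 hormones took a median of 19.01%, 16.3% and 17.6% of a chromogranin cell's reads on mouse genes, and up to 43.7%. A CPM of one hormone is thus lowered where another is high, and the odds ratios and carrier comparisons were repeated with all gut hormone genes left out of the total.

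The hormones met in a small number of combinations. Of the 16 possible at 1000 CPM, 10 were found among the 250 cells, and 9 among the 187 chromogranin cells. Cck with Sct and Ghrl was found in 67 cells (13, 24 and 30 by pool), Cck with Sct in 53 (16, 15 and 22), all 4 together in 22 (8, 8 and 6) and Cck with Sct and Nts in 20 (4, 7 and 9). Cck alone was found in 14 cells, Sct with Nts in 13, Cck with Ghrl in 10, Sct alone in 4 and Nts alone in 1, and 46 cells had none. The 6 combinations never seen at this level were Ghrl alone, Cck with Nts, Sct with Ghrl, Ghrl with Nts, Cck with Ghrl and Nts, and Sct with Ghrl and Nts. Each 0 of 250 allows a share of up to 1.2%.

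Chromogranin cells mostly carried several of the hormones. At 1000 CPM they held 0 to 4 of them in 5, 11, 63, 86 and 22 cells, so that 3 was the most frequent number over all pools. In SLX-11175 the most frequent number was 2, with 22 cells against 17 that held 3. At 10000 CPM the counts were 18, 39, 90, 35 and 5, with 2 the most frequent, and that pair was Cck with Sct in 70 of 90 cells. In each pool 2 was the most frequent number at 10000 CPM, with 24 of 49, 28 of 64 and 38 of 74 cells. At this level 3 combinations that no chromogranin cell had at 1000 CPM appeared, Nts alone in 4 cells, Cck with Ghrl and Nts in 2 and Ghrl alone in 1. Sct lay between the thresholds in the first 2 kinds of cell and Cck in the last. Any further hormones of the 4 were below 1000 CPM in them. Of the chromogranin cells at or above 1000 CPM, 17 of 171 lay below 10000 CPM for Cck, 45 of 163 for Sct, 54 of 99 for Ghrl and 23 of 50 for Nts.

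**Figure D2:**
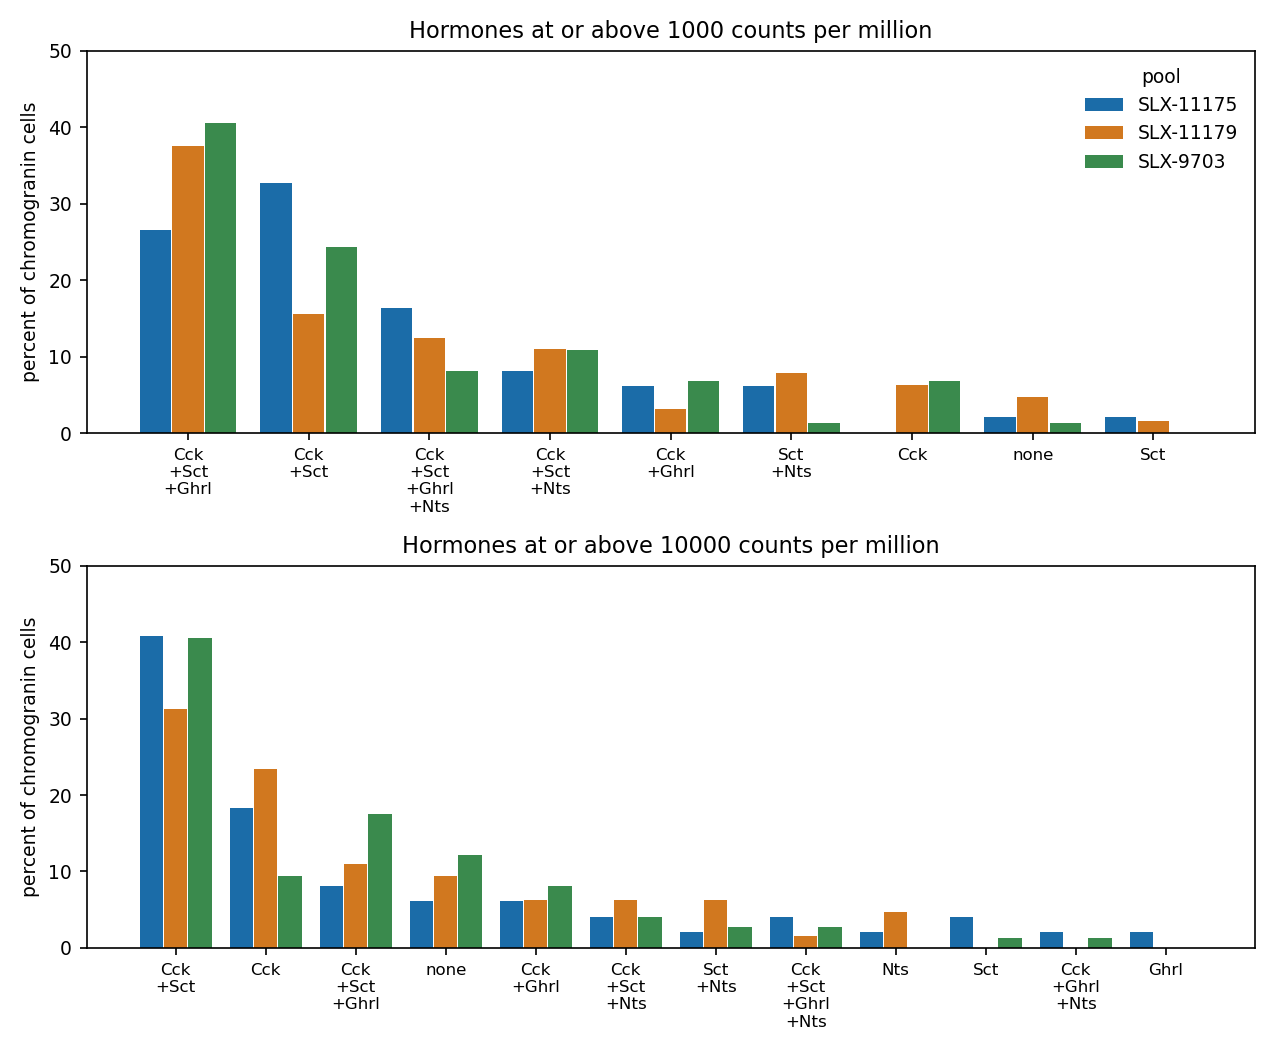
Share of the chromogranin cells of each pool (percent, bars by pool) that carried each combination of the 4 hormones at or above 1000 CPM (top) and 10000 CPM (bottom); combinations found in no cell are left out. Cck with Sct, with or without Ghrl, leads in every pool, and no bar holds Ghrl without Cck at 1000 CPM.

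Cck and Sct, the genes of the 2 hormones that answer fat and acid in the duodenum, were carried together. At 10000 CPM, 28 of 31, 34 of 38 and 48 of 53 Sct carriers also carried Cck, against 13 of 44, 19 of 49 and 14 of 35 cells without Sct. Conversely 110 of 156 Cck carriers held Sct (70.5%, exact 95% interval 62.7 to 77.5) and 12 of 94 other cells did. To compare pairs, the log2 odds ratio was taken in each pool, which is 0 where 2 hormones are spread independently over cells and negative where they are found together less often than that. It was given without a test, and an exact two-sided test by sign changes over 3 pools could not go below 0.25. For Cck and Sct at 10000 CPM it was 4.25, 3.58 and 3.71 (mean 3.85 ± 0.35). Within chromogranin cells it was 1.73, 1.81 and 3.18 (2.24 ± 0.82), lower than over all cells and still above 0 in each pool. Of the cells below the gate, 0, 2 and 0 had 10000 CPM of Cck and 0, 2 and 2 had as much Sct.

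Ghrl was carried by Cck cells. At 1000 CPM all 99 Ghrl carriers also carried Cck (24, 34 and 41; exact 95% interval for the share 96.3 to 100%), against 72 of 88 other chromogranin cells. At 10000 CPM 44 of 45 did. The exception, in SLX-11175, was chosen for mention after its values were seen: it held 38242 CPM of Ghrl, 3138 CPM of Cck and 177623 CPM of Gcg. The reverse did not hold, as 99 of 171 chromogranin cells with Cck at 1000 CPM carried Ghrl (57.9%). The log2 odds ratio of the pair at 10000 CPM was 2.90, 4.38 and 4.88 over all cells (4.05 ± 1.03). In chromogranin cells it was 0.74, 3.09 and 3.80 (2.54 ± 1.60). The share of Ghrl carriers with Cck at 1000 CPM stayed between 99.2% and 100% in 9 alternative treatments of the data.

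The odds ratio of Sct and Ghrl differed in sign between pools once cells below the gate were left out. Over all cells the log2 odds ratio at 10000 CPM was 0.87, 1.49 and 0.61. In chromogranin cells it was -0.68, 0.70 and -0.10, a mean of -0.03 ± 0.69. Of 45 Ghrl carriers 29 held Sct at 10000 CPM (64.4%), and of the 142 other chromogranin cells 89 did (62.7%), counted over all pools with no test.

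At 1000 CPM Nts was carried by Sct cells. All 50 Nts carriers among the chromogranin cells also carried Sct (15, 20 and 15; exact 95% interval for the share 92.9 to 100%), against 113 of 137 other chromogranin cells. Over all cells it was 55 of 56. At 10000 CPM 5 of 7, 9 of 12 and 7 of 8 Nts carriers held Sct, against 26 of 42, 27 of 52 and 44 of 66 of the others. In all these are 21 of 27 (77.8%) and 97 of 160 (60.6%), counted over all pools with no test. The log2 odds ratio at 10000 CPM was 1.82, 1.70 and 1.89 over all cells and 0.45, 1.33 and 1.34 in chromogranin cells, above 0 in each pool in both.

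Cck and Nts were the 1 pair whose odds ratio was below 0 in each pool within chromogranin cells at both thresholds. At 1000 CPM its log2 value was -1.86, -1.68 and -2.01 (mean -1.85 ± 0.17), and at 10000 CPM it was -1.35, -3.29 and -1.05 (-1.90 ± 1.21). At 10000 CPM Cck was carried by 5 of 7, 5 of 12 and 6 of 8 Nts carriers, against 36 of 42, 46 of 52 and 56 of 66 of the others. At 1000 CPM the counterpart cells were few: 9 of 50 Nts carriers lacked Cck, and 7 of 137 other chromogranin cells did. By pool these were 3, 5 and 1 Nts carriers and 2, 4 and 1 others. The small SD at 1000 CPM therefore rests on few cells. Over all cells the values were 0.49, -0.21 and 0.24 at 1000 CPM and 0.97, -1.50 and 0.17 at 10000 CPM, so SLX-11179 was below 0 there too and the other pools were above it. Below the gate 1, 6 and 8 cells had 1000 CPM of Cck and 3, 2 and 1 had as much Nts. Values below 0 in each pool were thus found within chromogranin cells and not over all cells. With gut hormones left out of the CPM, a treatment added after the data were seen, the values in chromogranin cells were -1.71, -2.59 and -2.01 at 1000 CPM and -0.60, -3.01 and -1.40 at 10000 CPM.

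**Figure D3:**
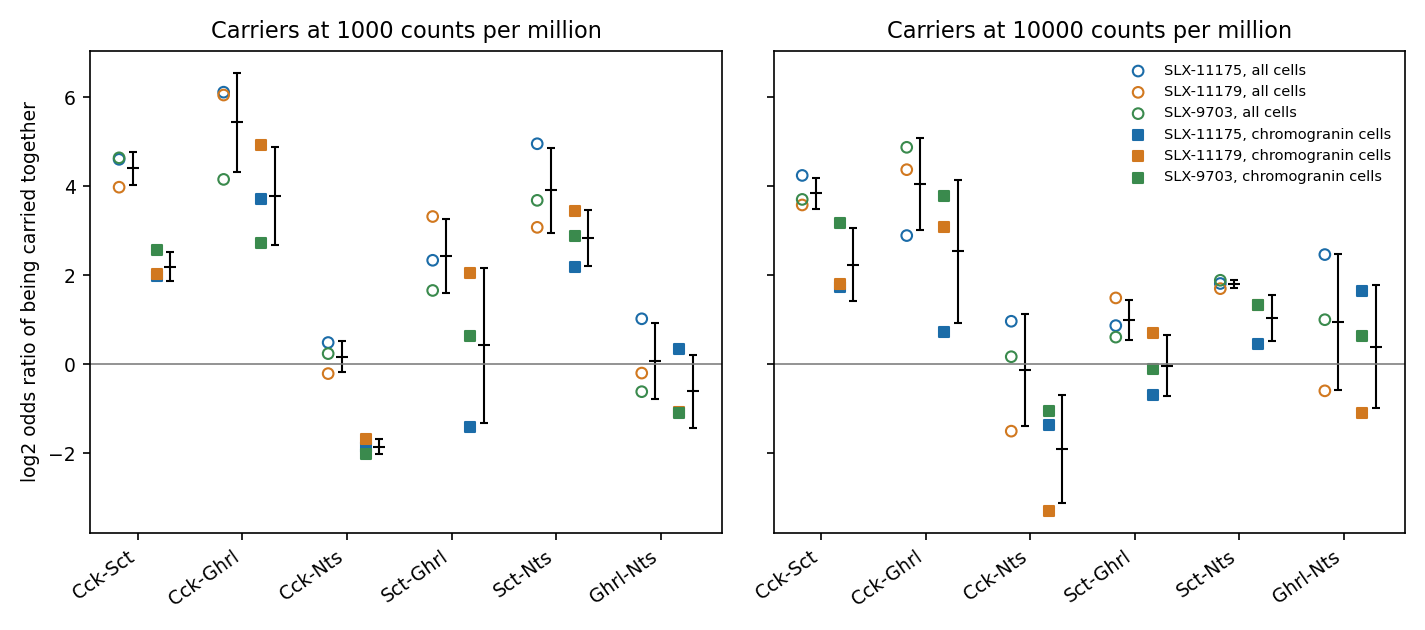
Log2 odds ratio of being carried together for each pair of hormones, at 1000 CPM (left) and 10000 CPM (right); open circles are all cells, filled squares chromogranin cells, 1 point per pool, and bars show the mean ± SD over 3 pools. Cck-Sct, Cck-Ghrl and Sct-Nts lie above 0 in each pool and both sets of cells; Cck-Nts lies below 0 in each pool among chromogranin cells.

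Nts cells with and without Cck were compared by their Nts levels. Among all cells with Nts at 10000 CPM, 12 held less than 10000 CPM of Cck (2, 8 and 2 by pool) and 16 held more (5, 5 and 6). The 12 had a median of 185916 CPM of Nts (range 11915 to 416764) and 372 CPM of Cck (78.6 to 1736). The 16 had a median of 27077 CPM of Nts (11439 to 346956) and 92264 CPM of Cck. By pool, the Nts of cells without Cck was 182572 and 416764 CPM in SLX-11175, 11915 to 358705 in SLX-11179 and 16868 and 185674 in SLX-9703. With Cck it was 27217 to 346956, 12198 to 40360 and 11439 to 46936 CPM, so the sets overlapped in each pool, although in SLX-11179 7 of the 8 cells without Cck lay above all 5 with it. Both sets held Sct, with medians of 13690 and 39064 CPM. Ghrl was at 1000 CPM in 0 of the 12 and in 10 of the 16. Pzp, a protease inhibitor gene, was at 100 CPM in 0 of the 12 and 9 of the 16, while Tph1 was at 100 CPM in 8 of 12 and 8 of 16. Gcg and Gip were at 10000 CPM in none of the 28, which allows a share of up to 10.7% for each. Since 8 of the 12 cells came from SLX-11179, this description rests mainly on that pool.

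**Figure D4:**
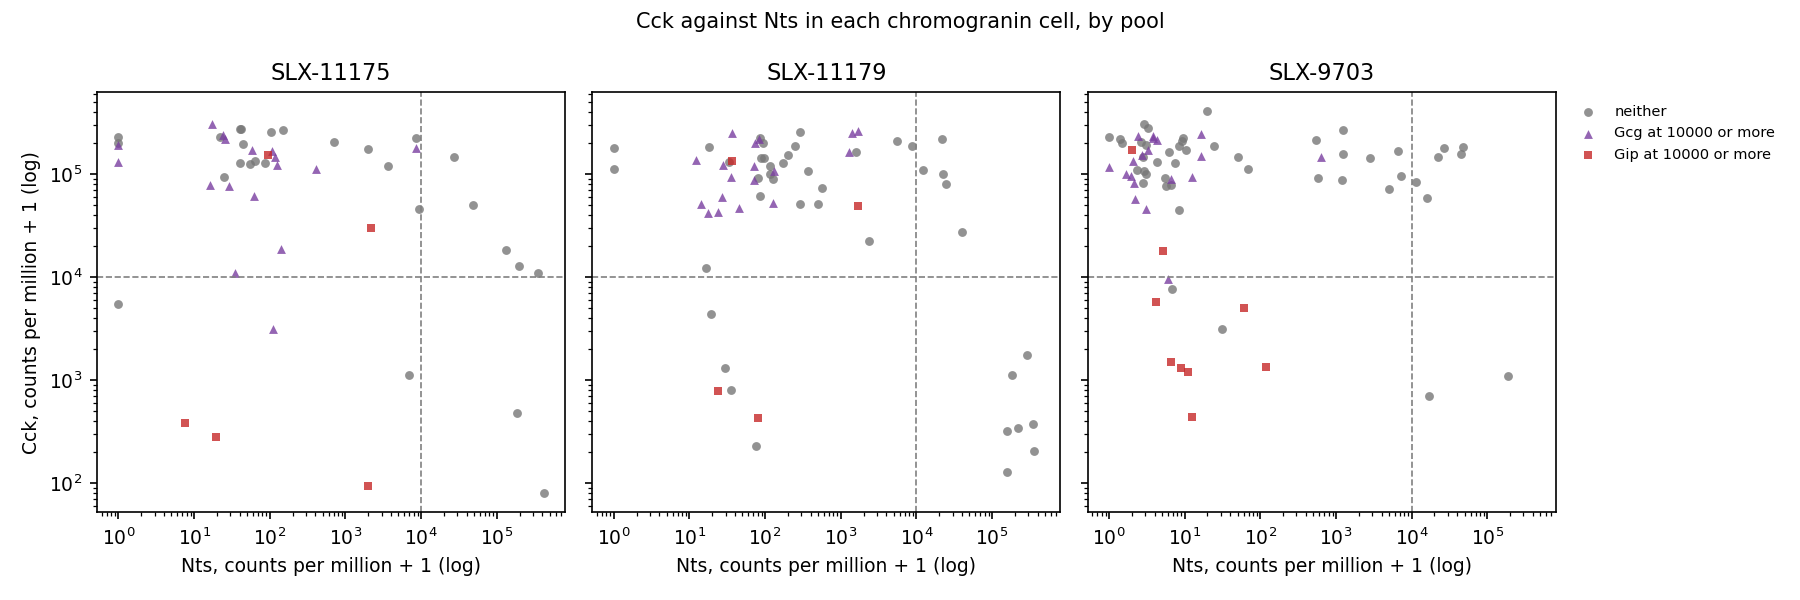
Cck against Nts (CPM + 1, log axes) in each chromogranin cell, by pool, with dashed lines at 10000 CPM; squares hold Gip and triangles Gcg (without Gip) at or above 10000 CPM. In SLX-11179 the 7 cells with most Nts lie under 2000 CPM of Cck, and no square or triangle lies right of the vertical line in any pool.

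The odds ratio of Ghrl and Nts differed in sign between pools. At 10000 CPM their log2 odds ratio in chromogranin cells was 1.66, -1.09 and 0.63, with 3, 1 and 3 cells that carried both. At 1000 CPM, 22 of 50 Nts carriers held Ghrl (exact 95% interval of the share 29.99 to 58.7%) and 77 of 137 other chromogranin cells did (56.2%), with log2 odds ratios of 0.35, -1.07 and -1.08. In read sums over carriers, described further on, each of the 2 was lower in each pool in carriers of the other, and neither passed the test.

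The combinations differed in the other hormones they held. Cells with Cck and Ghrl but not Sct at 1000 CPM mostly held proglucagon: Gcg was at 10000 CPM in 9 of the 10, with a median of 185961 CPM. Gcg was at 10000 CPM in 23 of 67 cells with Cck, Sct and Ghrl, in 18 of 53 with Cck and Sct, in 4 of 22 with all 4, in 1 of 20 with Cck, Sct and Nts, and in 0 of 13 with Sct and Nts. All 58 cells with Gcg at 10000 CPM carried Cck at 1000 CPM, 46 carried Sct and 36 carried Ghrl, and 5 carried Nts. Of the 29 cells with Gip at 10000 CPM, 14 carried Cck, 15 Sct, 2 Ghrl and 4 Nts at 1000 CPM. All 4 cells with Sct alone held Gip at 1000 CPM or more. Of the 65 cells with Pzp at 100 CPM, all carried Cck, 64 carried Sct, 44 Ghrl and 18 Nts. These counts were made over all pools and have no test.

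To compare genes beyond the hormone that defines a carrier, reads were summed per pool over carriers at 10000 CPM and over the other chromogranin cells. The sums were compared by the quasi-likelihood test of edgeR, blocked by pool, with Benjamini-Hochberg adjustment over all genes, at a false discovery rate of 0.05. The defining hormone is left out of every count below. The 4 comparisons divide the same cells in 4 ways, so they are not independent of each other. The read sums weigh deep cells more, and the p-values measure the spread between 3 pools that the labels do not tie to mice.

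Carriers of Cck (41, 51 and 62 cells) were compared with 8, 13 and 12 other chromogranin cells. The others held less of Chgb, a gene of the gate itself, at 971, 1524 and 3509 CPM against 11023, 11916 and 16248 CPM in carriers, without overlap (log2 fold change 2.89 ± 0.49, edgeR adjusted p 0.0746). Scg2, a granule protein gene, was without overlap too (2.08 ± 0.41, edgeR adjusted p 0.154), Chga was at 807, 559 and 257 CPM against 647, 416 and 744 CPM, and 0 of the 9 endocrine markers were called. The part of this in the results below was not tested. Sct was at 37968, 42203 and 41110 CPM in the carriers' sums and at 10527, 7571 and 5646 CPM in the others, without overlap. The log2 fold change was 2.40 ± 0.55 (SE), with an edgeR adjusted p of 0.216. Nts was at 21705, 3540 and 2289 CPM in carriers and at 104750, 141579 and 17841 CPM in the others, lower in carriers in each pool (log2 fold change -3.47 ± 0.79, edgeR adjusted p 0.216). Ghrl was higher in the carriers of 2 of 3 pools, with SLX-11175 at 10161 against 11354 CPM. Gip was at 12517, 5438 and 699 CPM in carriers and at 167743, 149333 and 311248 CPM in the others (log2 fold change -5.54 ± 1.17, edgeR adjusted p 0.194). None of these hormones passed the edgeR test; by DESeq2, an alternative, Sct, Ghrl, Nts and Gip passed with the same signs (adjusted p 0.00215, 0.0471, 1.22e-05 and 1.12e-09). In all, 7 of 10871 genes rose in Cck carriers (0.0644%) and 1 fell (0.0092%), with 619 at an unadjusted p under 0.05. Among the 3 other members 0 were called. Nts was at 10000 CPM in 11 of the 33 other cells and in 16 of the 154 carriers. Fabp5 and Cnr1, listed with Gip as K-cell markers, were lower in carriers without overlap (log2 fold changes -3.27 and -2.31). Neither passed (edgeR adjusted p 0.194 and 0.482). The part of Nts cells and K cells in the calls was not tested.

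Among the genes that rose was Pyy, the L-cell hormone peptide YY, at 2289, 1022 and 368 CPM in carriers and 47.1, 0 and 1.75 CPM in the others (log2 fold change 7.45 ± 0.84, edgeR adjusted p 0.00655). All 24 cells with Pyy at 1000 CPM carried Cck at 10000 CPM. Of the other listed L-cell genes, Gcg was at 40752, 45577 and 46849 CPM in carriers and 52195, 318 and 9284 CPM in the others (edgeR adjusted p 0.91), and neither it nor the receptor gene Gpr119 passed; both were lower in the carriers of SLX-11175. Agr2, a protein disulfide isomerase of the secretory pathway, was at 2046, 2756 and 2744 CPM against 48.7, 216 and 49.1 CPM, and Tff3, a trefoil peptide of mucus-secreting cells, at 1911, 2309 and 2546 CPM against 127, 196 and 172 CPM. Their log2 fold changes were 4.96 and 3.79, with edgeR adjusted p of 0.00618 for both. Rgs2, a regulator of G-protein signalling, rose by 3.90 and Mc4r, a melanocortin receptor found with 0, 0 and 11 reads in the other cells, also passed, as did Habp2, a plasma protease, and Lyzl4, a lysozyme-like gene with no read in the other cells (at least 12.4-fold higher in each pool against a floor of 3 counts per pool sum). Mc4r is 1 of 5 listed markers of cells with Pzp, of which it was the 1 called. Pzp was at 195, 331 and 386 CPM in carriers against 0, 81.6 and 1.31 CPM, and Cyp2j5 at 86.3, 163 and 232 CPM against 0, 34.8 and 0.561 CPM, both without overlap (edgeR adjusted p 0.216), and the part of such cells in the call was not tested. Lyzl4 lies 82149 bases from Cck on the same strand (chr9:121577843-121642096). The 1 gene that fell was Adgrd1, an adhesion G-protein coupled receptor, at 46.5, 10.4 and 7.57 CPM against 297, 605 and 186 CPM (log2 fold change -4.40). Tff3 is 1 of 5 listed goblet cell markers, of which 2 had enough reads to be tested and Tff3 was the 1 called; the summed level of the 5 had medians of 590, 815 and 2005 CPM in chromogranin cells, and its part in the result was not tested. Without SLX-11175, SLX-11179 or SLX-9703 the number of genes called was 77, 32 and 7, and 8, 8 and 3 of the 8 calls were kept; the fit without SLX-11179 gave every gene 1 common spread, so its calls are no sign of stability. With gut hormones left out of both the library size and the CPM that defines carriers, 4 genes rose and 2 fell, and 5 of the 8 calls were kept (Habp2, Lyzl4 and Mc4r were lost).

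Carriers of Sct (31, 36 and 51 cells against 18, 28 and 23) had more Cck and less Gcg. Cck was at 182848, 160602 and 146181 CPM in carriers and 60654, 58272 and 65994 CPM in the others, without overlap, and rose by 1.40 ± 0.15 on the log2 scale (edgeR adjusted p 0.0359). It was the 1 other member called, and the call was lost in 6 of 14 alternatives, among them those without SLX-11179 (edgeR adjusted p 0.138) and without SLX-9703 (0.458), with log2 fold changes of 1.23 to 2.72 over all 14. Ghrl and Nts had log2 fold changes of -0.16 ± 0.28 and 0.62 ± 0.76, with edgeR adjusted p of 0.936 and 0.9, and their groups overlapped. With carriers taken at 1000 CPM the log2 fold change of Nts was 9.52 and passed (edgeR adjusted p 1.43e-09). The sums of the others then held 4, 9 and 11 cells, none of which carried Nts at 1000 CPM. That value thus largely restates the count of cells given above. Gcg, the proglucagon gene, was at 22360, 13091 and 17309 CPM in Sct carriers and at 80747, 71027 and 104305 CPM in the others (log2 fold change -2.30 ± 0.19, edgeR adjusted p 0.00696). Gip was at 40857, 6566 and 7970 CPM against 55913, 84547 and 73666 CPM, lower in each pool and without overlap, and did not pass (-2.52 ± 0.59, edgeR adjusted p 0.332). In single cells, Gcg was at 10000 CPM in 24 of 118 Sct carriers and 34 of 69 others. Of 10572 genes, 8 rose (0.0757%) and 5 fell (0.0473%).

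Other genes that rose in Sct carriers were Tff3 (log2 fold change 2.29), Lgals2, a sugar-binding galectin (1.53), Myl7, a myosin light chain (1.49), Nt5e, an enzyme that makes extracellular adenosine (2.02), Agr2 (1.72), Bace2, a membrane protease (1.94), and Drd4. Drd4, a dopamine receptor, had 36, 19 and 2092 reads in carriers and 0, 0 and 1 in the others, and lies 12873 bases from Sct on the opposite strand (chr7:141292006-141296464). Those that fell with Gcg were Baiap3, an exocytosis factor (-2.83), Cd24a (-2.35), 1700086L19Rik (-2.75) and Fap, a membrane serine protease (-1.71). Their edgeR adjusted p lay between 0.00586 and 0.0499. Tff3 is a listed goblet marker, and Fcgbp, the other one tested, was higher without overlap (1.19, edgeR adjusted p 0.271). The 5 listed markers of cells with Pzp all had log2 fold changes above 0 and 0 passed (Tph1 1.93, without overlap, edgeR adjusted p 0.0798; Pzp 0.96, 0.271), and of 5 tested enterocyte markers 4 were above 0, among them Sis (0.94, without overlap, 0.137). The part of these in the calls was not tested. Without SLX-9703, the deep pool, none of the 13 was called, while the log2 fold changes were -2.15 for Gcg, 2.37 for Tff3, 1.53 for Cck and -2.81 for Baiap3, near those with all pools. By contrast 27 and 43 genes were called without SLX-11175 and SLX-11179, with 10 and 12 of the 13 kept. With gut hormones left out of the library size and the carriers' CPM, which made 34, 37 and 51 cells carriers, 20 genes rose and 7 fell, and 12 of the 13 were kept.

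Carriers of Ghrl (11, 12 and 22 cells against 38, 52 and 52) were nearly without Gip. Gip, the K-cell hormone, was at 21.7, 52.1 and 40.4 CPM in Ghrl carriers and at 71109, 51410 and 44010 CPM in the others, a log2 fold change of -10.49 ± 0.51 (edgeR adjusted p 8.93e-05). In single cells 0 of 45 Ghrl carriers had 1000 CPM of Gip, which allows a share of up to 6.67%, and 21 of 142 others did. Fabp5, a fatty acid binding protein used here as a K-cell marker, fell too, from 207, 223 and 235 CPM to 23.9, 13.7 and 16.5 CPM. Rgs4, a regulator of G-protein signalling, had 0, 0 and 4 reads in carriers and 183, 391 and 7669 in the others, and Th, the enzyme of catecholamine synthesis, had 0, 0 and 1 against 77, 100 and 2183. These were all 4 genes that fell of 10978 (0.0364%), and 0 rose, with 437 at an unadjusted p under 0.05 (187 of them higher) and 15 higher by DESeq2. Cnr1, a listed K-cell marker too, was at 2.17, 3.42 and 2.05 CPM against 56.1, 74.3 and 26.7 CPM (-4.14). It did not pass (edgeR adjusted p 0.0515), and the part of K cells in the calls was not tested. Cck, Sct and Nts had log2 fold changes of 0.05 ± 0.31, -0.12 ± 0.35 and -1.86 ± 0.53, and none passed (edgeR adjusted p 0.977 and above). Nts was at 18934, 3735 and 2857 CPM in Ghrl carriers and 53505, 45971 and 4276 CPM in the others, lower in each pool, and the groups overlapped; with cells thinned to 20000 reads it passed (-2.06, edgeR adjusted p 0.0319). Gcg did not differ beyond the spread between pools (0.11 ± 0.38). With the carriers' threshold lowered to 1000 CPM no gene was called, with log2 fold changes of -7.03 for Gip, -7.55 for Rgs4, -3.51 for Fabp5 and -3.14 for Th. Without SLX-11175, SLX-11179 or SLX-9703 9, 33 and 4 genes were called, and 4, 4 and 3 of the 4 were kept, again with 1 common spread for every gene without SLX-11179. Th was the 1 lost without SLX-9703, as it was with cells thinned to 20000 reads and with a gate of 2000 CPM.

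**Figure D5:**
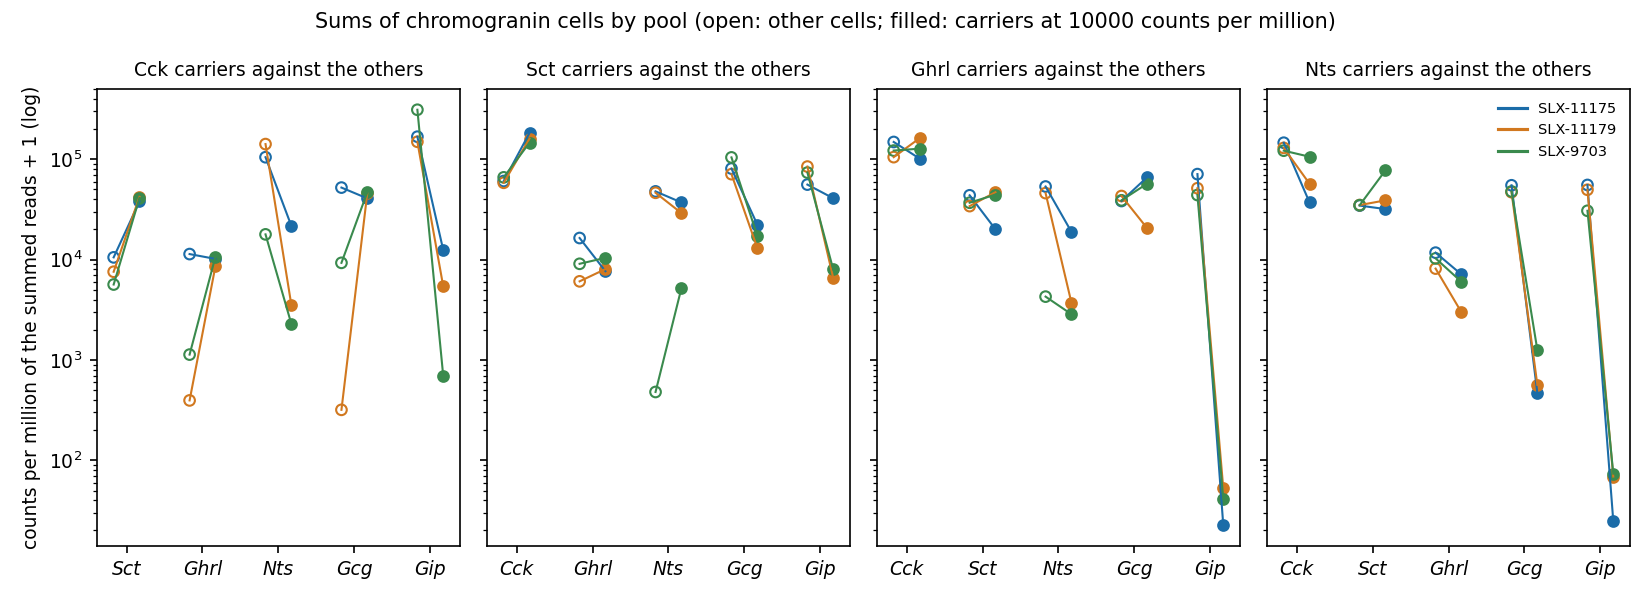
Level (CPM + 1 of the summed reads, log axis) of the other members, Gcg and Gip in carriers (filled) and other chromogranin cells (open) of each pool, for the 4 comparisons; lines join the sums of a pool. Gip is lower in each pool in all 4 kinds of carriers, Gcg is lower in each pool in Sct and Nts carriers, and Cck is higher in each pool in Sct carriers.

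Carriers of Nts (7, 12 and 8 cells against 42, 52 and 66) were low in both incretin hormone genes. Gcg was at 468, 564 and 1258 CPM in Nts carriers and at 55026, 46970 and 47785 CPM in the others (log2 fold change -6.17 ± 0.44, edgeR adjusted p 7.24e-05). Gip was at 23.9, 67.9 and 72.7 CPM against 55437, 49646 and 30647 CPM (-9.65 ± 0.57, edgeR adjusted p 1.63e-05). In single cells 0 of 27 Nts carriers had Gcg or Gip at 10000 CPM, against 58 and 18 of 160 others. By the limit of 3 counts 0 of 27 allows a share of up to 11.1%, near the share of Gip cells among the others. Chgb, a gene of the gate, was at 1012, 5443 and 12363 CPM against 11348, 11229 and 15536 CPM (-1.56, edgeR adjusted p 0.598). Chga, the other gate gene, was at 1034, 770 and 730 CPM against 638, 380 and 706 CPM (0.59, edgeR adjusted p 0.815). The part of these in the results was not tested. Cck was at 37087, 56943 and 105963 CPM in carriers and 146086, 129722 and 121722 CPM in the others, lower in each pool and without overlap, and did not pass (-1.12 ± 0.41, edgeR adjusted p 0.666; without SLX-9703 it passed, at -1.60 and 0.0469). Ghrl was also lower in each pool (-0.98 ± 0.27, edgeR adjusted p 0.367), and Sct was higher in 2 of 3 (0.40 ± 0.35). None of the 3 other members was called, of 6 genes that rose (0.0551%) and 3 that fell (0.0275%) among 10899.

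Tph1, the serotonin enzyme gene, and Uts2b, a urotensin peptide gene, rose in Nts carriers. Tph1 was at 222, 241 and 575 CPM in carriers and 28.9, 36.2 and 172 CPM in the others (log2 fold change 2.45 ± 0.32, edgeR adjusted p 0.015). In single cells Tph1 was at 100 CPM in 16 of 27 carriers and 31 of 160 others. Fev, a transcription factor gene that serotonin cells also use, lay the other way without passing, at 20.2, 18.4 and 30.6 CPM in carriers and 91.5, 76.6 and 112 CPM in the others (log2 fold change -2.02 ± 0.38, edgeR adjusted p 0.144). Tac1, the substance P gene, had 0 reads in the carriers' sums against 15, 51 and 917 in the others and did not pass either (edgeR adjusted p 0.367). Uts2b was at 112, 41.9 and 48.5 CPM against 0.412, 0.234 and 2.14 CPM (6.02 ± 0.80). Among all cells with Nts at 10000 CPM, Uts2b was at 100 CPM in 5 of the 12 with less than 10000 CPM of Cck. In the 16 with more Cck it was at 100 CPM in 0, with a highest value of 92.5 CPM. Of the 12 cells 8 came from SLX-11179. Adgrd1, which fell in Cck carriers, was at 536, 649 and 192 CPM against 2.89, 8.41 and 8.31 CPM (5.90 ± 0.52). Pgc, the gene of the protease precursor progastricsin (2.10), and Prss30, a serine protease gene (3.50), rose as well. Fcgbp, a listed goblet marker, was at 233, 221 and 205 CPM against 52.8, 48.1 and 86.8 CPM (1.85, edgeR adjusted p 0.0798). Tff3, the other one tested, was higher in each pool (0.55, edgeR adjusted p 0.822). Lyz1, a listed Paneth cell marker, had 0, 0 and 1 reads in carriers against 49, 45 and 2510 (edgeR adjusted p 0.216). The part of these in the calls was not tested. Rassf9, with 62, 45 and 404 reads in carriers and 1, 3 and 35 in the others, lies 21736 bases from Nts on the opposite strand (chr10:102512222-102549736). The genes called in Cck, Sct and Nts carriers thus each included 1 within 500000 bases of the defining hormone, and those in Ghrl carriers included 0; this was looked for after the calls were seen. Of the genes tested, 9 (0.0828%), 31 (0.293%), 2 (0.0184%) and 15 (0.137%) lay in these windows for Cck, Sct, Nts and Ghrl. The calls of Lyzl4 and Drd4 were each lost in 6 of 14 alternatives and that of Rassf9 in 1. Cd44, an adhesion receptor, had 0, 2 and 5 reads in carriers against 80, 320 and 5460. Pzp had a log2 fold change of -0.03 ± 0.27 and did not pass. Among the other listed markers of cells with Pzp, Cyp2j5 was higher in each pool (1.63 ± 0.27, edgeR adjusted p 0.0738). Casr and Mc4r had log2 fold changes of 0.30 ± 0.80 and -1.19 ± 0.61. Of Cyp2j5, Casr and Mc4r none passed, and the part of such cells in the calls was not tested. Without SLX-11175, SLX-11179 or SLX-9703 15, 26 and 17 genes were called, and 9, 9 and 8 of the 9 were kept, with 1 common spread for every gene without SLX-11179. With carriers taken at 1000 CPM none was called, with log2 fold changes of -3.47 for Gcg, -3.05 for Gip, 1.85 for Tph1 and 4.93 for Uts2b.

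Genes of hormone processing and endocrine transcription factors were listed as well. With at most 0.0757% of all genes called in 1 direction, 0 calls among about 10 genes say nothing particular of a list. Of the 10 maturation genes, which include the convertases Pcsk1 and Pcsk2, the amidating enzyme Pam and the ghrelin acyltransferase Mboat4, 9 or 10 were tested and 0 were called. Their median log2 fold changes were 0.57 in Cck carriers, 0.34 in Sct, 0.11 in Ghrl and -0.09 in Nts carriers, beside 0.25, 0.03, -0.09 and -0.14 over all genes tested. Mboat4 in Ghrl carriers was at 211, 10.3 and 15.8 CPM, against 10.05, 15.7 and 11.6 CPM in the others, higher in 2 of 3 pools. Of the 14 transcription factor genes, which include Neurod1, Pax6 and Isl1, 11 were tested and 0 called, with medians of 0.29, -0.38, -0.03 and -0.97. Single factors lay on both sides without passing. Neurod1 was at 474, 749 and 905 CPM in Cck carriers and 367, 350 and 298 CPM in the others, without overlap (log2 fold change 1.03 ± 0.37, edgeR adjusted p 0.714). Isl1 was at 95.7, 112 and 145 CPM in Sct carriers and 363, 358 and 277 CPM in the others (-1.50 ± 0.25, edgeR adjusted p 0.0959), and lower without overlap in Cck and Nts carriers too (-1.23 and -1.04). Rfx6 was at 22.8, 14.5 and 8.84 CPM in Ghrl carriers and 117, 84.2 and 53.1 CPM in the others (-2.50 ± 0.35, edgeR adjusted p 0.0987), and in Cck carriers its log2 fold change was -2.28. Of the 16 other gut hormone genes 7 or 8 were tested: Pyy rose in Cck carriers, Gcg fell in Sct carriers, Gip fell in Ghrl carriers, and in Nts carriers Tph1 and Uts2b rose while Gcg and Gip fell.

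The genes whose levels followed each hormone most closely over cells were partly the other members. Rank correlations were computed within each pool on log2(CPM + 1) over all cells that passed and averaged over the 3 pools, among 8542 genes found in at least 10% of the cells of each pool. They share the depth and the cell types of a pool and are given as a description. Cck followed Scg2, a granin (0.81), Chgb (0.76), Lgals2 (0.74), Sct (0.74) and Tm4sf5 (0.72), and ran most against 1700097N02Rik, Slc34a2 and Scn4b (-0.38 to -0.36). Sct followed Myl7 (0.83), Tm4sf4 (0.75), Cck (0.74), Lgals2 (0.74) and Adgrg4 (0.74), and ran most against Cd44, Slc34a2 and 1700097N02Rik (-0.31 to -0.28). Ghrl followed Ceacam10 (0.64), Scg2 (0.59), 5330417C22Rik (0.59), Cck (0.58) and Tff3 (0.57), and ran most against Cd44, Gm14988 and Flrt3 (-0.34 to -0.31). Nts had no close follower: Nt5e (0.42), Rflna (0.39), Tnk2 (0.38), Adgrd1 (0.34) and Anxa2 (0.34) led, and Cd74, Gm5870 and Pycard were lowest (-0.29 to -0.25). Among the genes that follow Nts, Sct ranked 8th with 0.32 ± 0.17 and Cck 3274th with 0.05 ± 0.21.

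Restricted to chromogranin cells, a choice made after seeing the data, the likeness of Cck to Sct was 0.56 ± 0.04 and that of Cck to Ghrl 0.28 ± 0.12. Between Cck and Nts it was -0.20 ± 0.12, with -0.33, -0.10 and -0.17 in the 3 pools. Ceacam10, a cell adhesion gene, remained closest to Ghrl (0.61 ± 0.11) and Nt5e to Nts (0.43 ± 0.11), and Myl7 to Sct (0.70 ± 0.03). Gcg was among the 3 genes that ran most against Nts (-0.35 ± 0.07), and Rgs4 and Cnr1, a cannabinoid receptor used as a K-cell marker, were among those that ran most against both Cck and Ghrl.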

How the data were processed

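The authors deposited 1 table of raw read counts per gene and cell, made, per the labels and their processing notes, from Smart-seq2 libraries aligned with GSNAP (2015-09-29) to mm10 and counted with HTSeq (0.5.3p3). Counts are whole, not normalized, without strand and without molecular identifiers. Lines that name no gene (77.6% of all counts) and 92 spike-ins (5.34%) stayed out of library sizes and tests, and 4 columns of no sample were not used. Symbols and coordinates come from GENCODE M21 (mm10) and promoters from RefSeq.

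CPM were computed over mouse genes, and carriers, combinations and odds ratios (0.5 added to each cell of a 2 by 2 table) within each pool. No cluster was built and no doublet caller was run, since cells were sorted into wells; doublets of the sort would show as combinations. Carriers and other chromogranin cells (at least 3 cells per sum) were summed per pool and compared with edgeR 4.0.16 in R 4.3.3 (TMM, filterByExpr, quasi-likelihood test); the pool is a block because the 2 sums of a pool share their cells' source, and their deviations correlated at 0.116 to 0.461 in all 12 cases. Intervals are exact Clopper-Pearson intervals. The SE printed with a log2 fold change was worked back from the test, as the size of the fold change divided by the square root of the quasi-likelihood F statistic. Scripts were tested on simulated data. DESeq2 1.42.0 and other gates, thresholds and filters were alternatives.

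The members and gene lists were chosen with earlier results of these data known. A listed transcription factor gene is not reported here and stayed out of its list's counts and median. Named genes are the members, listed genes that passed or bear on a member, the 5 highest- and 5 lowest-ranked calls by adjusted p in each comparison, and the 5 most and 3 least alike genes of each member; the remaining called genes were named after their values were seen.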

Additional observations from a re-analysis of the deposited data

How the results depend on the processing

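In the pair odds ratios at 10000 CPM, the directions of Cck with Sct, Cck with Ghrl and Sct with Nts stayed the same under all 10 alternatives. The mean of Ghrl-Nts stayed above 0 too, from 0.21 without SLX-11175 to 1.74 without SLX-11179, with pools of both signs. Restricting to chromogranin cells gave 2.24 for Cck-Sct, 2.54 for Cck-Ghrl, 1.04 for Sct-Nts, -1.90 for Cck-Nts, 0.40 for Ghrl-Nts and -0.025 for Sct-Ghrl. Within them, gut hormones left out of the CPM moved Sct-Nts to 1.78, and no mean of the 6 pairs changed sign. A minimum of 50000 reads gave 3.35 for Cck-Sct and 1.62 for Sct-Nts. Sct-Nts was 1.63 with the deep pool cut at 750000 reads, 1.55 at 10% mitochondrial reads, 2.54 with gut hormones left out of the CPM and 1.62 with 1 added to the table. Cck-Nts over all cells, -0.12, turned to 0.16 with gut hormones left out of the CPM; its values with 1 pool left out ran from -0.66 to 0.57. At 1000 CPM, Cck-Nts turned to -1.85 in chromogranin cells. Ghrl-Nts turned to -0.033 at 50000 reads, -0.11 with the deep pool at 750000, -0.022 at 10% mitochondrial reads, -0.60 in chromogranin cells and -0.40 without SLX-11175, with -0.40 to 0.42 when any 1 pool was left out. The causes were not tested.

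The number of genes called moved widely, and the cause was not tested. The prior degrees of freedom of edgeR, 5.92 to 9.38 in the 4 reported fits, were infinite without the filter on low counts in all 4 comparisons, without SLX-11179 for Cck, Ghrl and Nts, at a gate of 2000 CPM for Cck and Nts, with carriers at 1000 CPM for Cck and after thinning for Nts. Such a fit gives every gene 1 common spread, so its calls are not read as support. Without the replicate block by pool, 2 genes were called for Cck, 7 for Sct, 5 for Ghrl and 4 for Nts, against 8, 13, 4 and 9 with it. DESeq2 called 160, 178, 59 and 127, and no filter on low counts 101, 183, 55 and 74. With 1 pool left out the counts ran from 7 to 77 for Cck, 0 to 43 for Sct, 4 to 33 for Ghrl and 15 to 26 for Nts. All cells in place of chromogranin cells gave 173, 118, 32 and 36, and thinning to 20000 reads 42, 66, 7 and 52. A gate of 100 CPM gave 3 for Cck and 20 for Sct; one of 2000 CPM gave 53 for Cck, 1 for Sct and 30 for Nts, without SLX-11175 for Cck and Nts. Carriers at 1000 CPM gave 68 for Cck (without SLX-9703, which had 2 other cells), and 0 for Ghrl and for Nts. A minimum of 50000 reads gave 2 for Sct, 10% mitochondrial reads 4 for Cck, and a library size and carriers' CPM without gut hormones 27 for Sct.

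Small fold changes of members turned in sign. Ghrl in Sct carriers turned to 0.34 without SLX-11175, 0.40 in all cells, 0.72 at a gate of 2000 CPM, 0.51 at 1000 CPM, 0.20 after thinning and 0.060 with gut hormones left out of the library size and the carriers' CPM, and lay between -0.44 and 0.34 with any 1 pool left out. Nts in Sct carriers turned to -0.41 without the replicate block, -0.52 without SLX-9703 (up to 1.54 with another pool left out) and -0.46 at a gate of 2000 CPM. With carriers at 1000 CPM, where no other chromogranin cell carried Nts, it passed at 9.52. It passed at 0.67 without the filter on low counts. Without that filter the 3 other members also passed in Cck carriers, Nts did in Ghrl carriers (-1.90), and Cck and Ghrl did in Nts carriers (-1.22 and -1.07). Cck in Ghrl carriers turned to -0.24 without SLX-11179. Sct in Ghrl carriers turned to 0.36 without SLX-11175 (down to -0.42 with another left out), 0.22 in all cells and 0.38 at a gate of 2000 CPM. Gcg in Ghrl carriers turned to -0.27 without SLX-11175, -0.15 without SLX-9703 (up to 0.68 with the other left out), -0.32 at a gate of 2000 CPM and -0.0066 after thinning.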

Other observations

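Of the 46 cells that carried none of the 4 hormones at 1000 CPM, 10 (6, 2 and 2 by pool) held Gip at 10000 CPM or more, with a median of 131498 CPM (11815 to 610612). Their Cck lay between 259 and 955 CPM, their Sct at or below 467 CPM, and Pzp and Tph1 were at 100 CPM in none of them.

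Tph1, the serotonin enzyme gene, was at 100 CPM in 49 cells, of which 48 carried Sct, 42 Cck, 27 Ghrl and 21 Nts at 1000 CPM, and Pzp was at 100 CPM in 38 of them. Gcg was at 10000 CPM in 0 of the 49, which allows a share of up to 6.12%. These are counts over all pools with no test.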
